A study of Mus musculus with 21 samples.

Results

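The 6 genes described here are the protein-coding genes of the mouse mitochondrial genome that give subunits of respiratory complexes III, IV and V: mt-Cytb, mt-Co1, mt-Co2, mt-Co3, mt-Atp6 and mt-Atp8. Membership was set by gene symbol, and the genes, lists and tests were chosen with earlier results of these data known. Each of the 6 was found once in each of 3 tables, which held 12905 genes for the RACK1 line, 12274 for the RPLP1 line and 12353 for the RPLP0 line. The remaining 7 mitochondrially encoded protein genes in the tables, all of complex I, were used for comparison.

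The 3 lines are E14 mouse embryonic stem cells, which come from the inner cell mass of the blastocyst. The genotypes are labelled RACK1-AID/RPS26-Tir1, RPLP1-AID/RPS26-Tir1 and RPLP0-AID/RPS26-Tir1, where AID is an auxin-inducible degron fused to the named protein and Tir1 is the plant receptor that auxin uses to mark such a protein for destruction; every sample, control or treated, carries both. In each line 3 mRNA samples were taken after 8 h of the auxin IAA and 3 after 8 h of its solvent DMSO, and 1 footprint sample held all replicates of both treatments. RACK1 sits on the small ribosomal subunit, and RPLP1 and RPLP0 form part of the stalk of the large subunit. None of the samples lacked a degron, so an effect of IAA and one of removing the protein cannot be told apart, and "removal" below stands for IAA against DMSO in that line. The labels do not say whether a line is 1 clone or whether replicates were separate cultures, and the FDRs may thus reflect technical spread alone.

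The mitochondrial genome is transcribed inside the mitochondrion, and its mRNAs are translated there by mitochondrial ribosomes, which hold their own RNAs and proteins and none of RACK1, RPLP1 or RPLP0. The proteins studied here enter the inner membrane and join subunits that are encoded in the nucleus and made by cytosolic ribosomes. Cytochrome b, from mt-Cytb, is the membrane core of complex III; the products of mt-Co1, mt-Co2 and mt-Co3 form the core of cytochrome c oxidase, complex IV; and those of mt-Atp6 and mt-Atp8 lie in the membrane part of ATP synthase, complex V. Most mitochondrial mRNAs carry short poly(A) tails, and the mRNA samples of this series were made from polyadenylated RNA.

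The tables give, for each gene, a log2 change after removal and a false discovery rate (FDR, an adjusted p-value) for footprints, the mRNA pieces that ribosomes protect, and for mRNA. A positive change was read as higher after IAA, because the headers refer to change after removal without naming the numerator. The tables give no level and no value per sample, so the depth behind each change is unknown, and the kind of spread behind the footprint FDRs is not known, since 1 sample held both treatments. A change was called where the authors' FDR was below 0.05. All 10 pluripotency markers looked for were listed in each table, as were 6 of 10 fibroblast markers and, of 7 primitive endoderm markers, 5 in the RACK1 table, 4 in the RPLP1 table and 3 in the RPLP0 table. Without levels it is unknown how abundant any of them were, and their part in the results was not tested. In such bulk samples, fewer cells of a type and less RNA per cell cannot be told apart.

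After RPLP1 removal, 2 of the 6 genes rose in footprints and 4 changed in mRNA, and the called mRNA values did not all go the same way. Of all genes in that line, 8.39% were called in footprints and 14.2% in mRNA. The footprints of mt-Cytb and mt-Atp8 rose, while the mRNA values of mt-Cytb, mt-Co1 and mt-Atp6 fell and that of mt-Atp8 rose. Because mt-Atp6 and mt-Atp8 share 1 mRNA, their opposite mRNA calls cannot both give the level of that mRNA. After RACK1 removal and after RPLP0 removal none of the 6 passed in footprints or in mRNA. The shares of all genes there were 0.031% and 0.48% in the RACK1 line, and 2.46% and 9.95% in the RPLP0 line. In all 3 lines the footprint change of every gene lay above its mRNA change, as the plot of both changes for each gene shows.

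**Figure D1:**
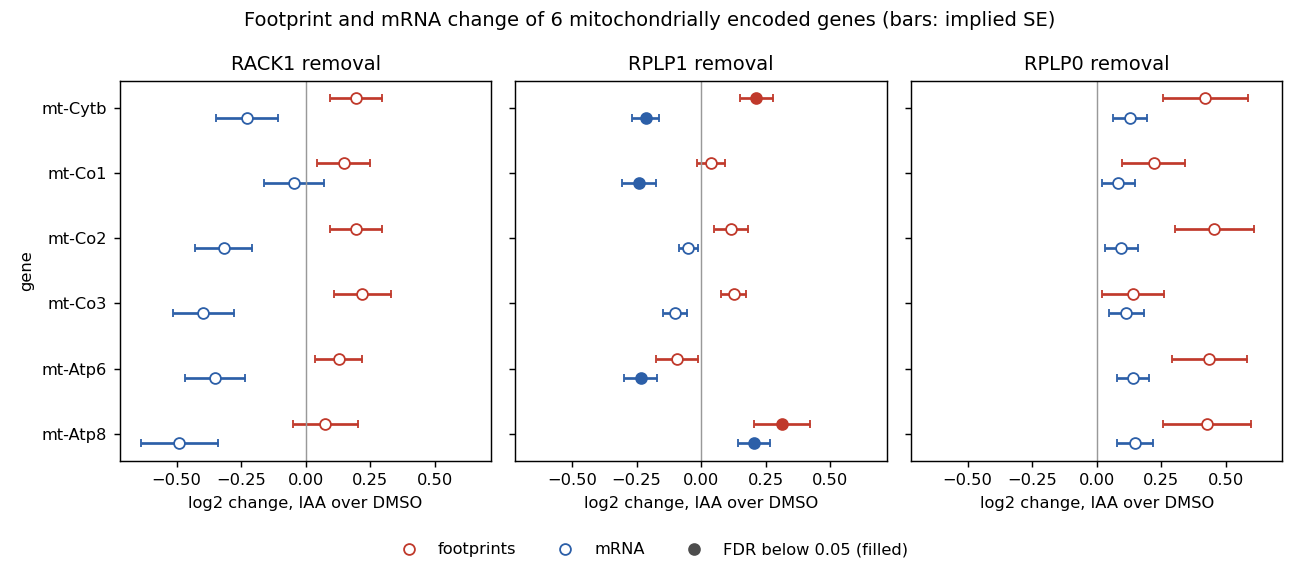
Log2 change after IAA over DMSO (x axis) of footprints and mRNA for each of the 6 genes (rows), 1 panel per line; bars are the SE implied by the authors' fold change and FDR, and filled points have an FDR below 0.05. Footprint points lie right of mRNA points for every gene in every panel, and only 6 points, all in the RPLP1 panel, are filled.

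For mt-Cytb, the complex III gene, footprints had a log2 change of 0.20 (FDR 0.604) and mRNA one of -0.23 (FDR 0.474) after RACK1 removal in the authors' deposited table. After RPLP1 removal the sizes were alike and both passed: footprints rose by 0.21 on the log2 scale (FDR 0.0211) and mRNA fell by 0.21 (FDR 0.00155), per the authors' deposited table. After RPLP0 removal the authors' deposited table gave log2 changes of 0.42 for footprints (FDR 0.118) and 0.13 for mRNA (FDR 0.202). Footprint changes were thus above 0 in each line, while the mRNA change was below 0 in the RACK1 and RPLP1 lines and above 0 in the RPLP0 line.

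Of the complex IV genes, mt-Co1 encodes the subunit that binds oxygen. After RACK1 removal its log2 changes were 0.15 for footprints (FDR 0.723) and -0.05 for mRNA (FDR 0.926) in the authors' deposited table. After RPLP1 removal its footprint change was 0.04 (FDR 0.693), while its mRNA fell by 0.24 on the log2 scale (FDR 0.00647), per the authors' deposited table. After RPLP0 removal the authors' deposited table listed a log2 footprint change of 0.22 (FDR 0.282) and an mRNA change of 0.08 (FDR 0.444). Only the mRNA change in the RPLP1 line was called for this gene.

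The product of mt-Co2 takes electrons from cytochrome c. In the authors' deposited table its log2 changes after RACK1 removal were 0.20 for footprints (FDR 0.604) and -0.32 for mRNA (FDR 0.181). Those after RPLP1 removal were 0.12 (FDR 0.248) for footprints and -0.05 (FDR 0.390) for mRNA, again from the authors' deposited table. After RPLP0 removal mt-Co2 had the largest footprint change of the 6 genes in any line, 0.46 on the log2 scale (FDR 0.0686), and its mRNA change was 0.10 (FDR 0.380), both from the authors' deposited table. No change of mt-Co2 passed. The product of mt-Co3 is the third core subunit, next to the catalytic ones. Its log2 changes in the authors' deposited table were 0.22 for footprints (FDR 0.592) and -0.40 for mRNA (FDR 0.0920) after RACK1 removal, and 0.13 (FDR 0.0713) and -0.10 (FDR 0.135) after RPLP1 removal. After RPLP0 removal its footprint change of 0.14 (FDR 0.509) and its mRNA change of 0.11 (FDR 0.309) were nearly equal on the log2 scale, per the authors' deposited table. For mt-Co3, too, no change passed.

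The complex V genes lie on 1 mRNA with overlapping reading frames, mt-Atp8 first. The product of mt-Atp6 forms part of the proton channel of ATP synthase. After RACK1 removal its log2 changes were 0.13 for footprints (FDR 0.731) and -0.35 for mRNA (FDR 0.151) in the authors' deposited table. After RPLP1 removal its footprint change was -0.09 (FDR 0.478), the only one below 0 among the 18 footprint changes of the 6 genes, and its mRNA fell by 0.23 on the log2 scale (FDR 0.00580), per the authors' deposited table. After RPLP0 removal the authors' deposited table gave 0.44 for footprints (FDR 0.0636) and 0.14 for mRNA (FDR 0.131), in log2 units.

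The short protein from mt-Atp8 helps to hold ATP synthase together in the membrane. After RACK1 removal its footprints had the smallest log2 change of the 6 genes, 0.08 (FDR 0.901), and its mRNA the lowest, -0.49 (FDR 0.112), in the authors' deposited table. After RPLP1 removal it was the 1 gene of the 6 that rose in both measures, by 0.31 on the log2 scale in footprints (FDR 0.0491) and by 0.20 in mRNA (FDR 0.0144), per the authors' deposited table. After RPLP0 removal its log2 changes in the authors' deposited table were 0.43 for footprints (FDR 0.130) and 0.15 for mRNA (FDR 0.180).

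In the RACK1 line 0 of the 6 genes were called in footprints and 0 in mRNA, against 0.031% and 0.48% of all genes in its table. At an unadjusted p below 0.05, by the p-values implied by the authors' FDRs, 1 of the 6 was reached in footprints (mt-Co3, higher; 8.29% of all genes) and 4 in mRNA (mt-Co2, mt-Co3, mt-Atp6 and mt-Atp8, all lower; 10.7%). The median log2 change of the 6 genes was 0.17 for footprints and -0.33 for mRNA, beside medians of -0.01 and 0.00 over all genes. The 5th percentile of mRNA changes over all genes was -0.54, and none of the 6 lay below it. All 6 genes had a footprint change above 0 and an mRNA change below 0, a combination held by 4 of the 7 complex I genes and by 20.1% of all genes.

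In the RPLP1 line 2 of the 6 genes were called in footprints, both higher, against 8.39% of all genes, of which those called higher made up 3.54% of the table. In mRNA 4 of the 6 were called, 1 higher and 3 lower, against 14.2% of all genes, 5.64% higher and 8.59% lower. The medians of the 6 genes on the log2 scale were 0.12 for footprints and -0.16 for mRNA, beside -0.01 and -0.01 over all genes. A footprint change above 0 with an mRNA change below 0 was seen for 4 of the 6 genes, 4 of the 7 complex I genes and 14.0% of all genes. Of 559 genes called in both measures in this line, 2 went in opposite directions, 0.0163% of the table. They were mt-Cytb and Rab4b, which encodes a small GTPase of endosomes; for Rab4b, named here after its values were seen, the authors' deposited table gave 0.65 for footprints (FDR 0.0366) and -0.29 for mRNA (FDR 0.0438), in log2 units. In the RACK1 line 2 genes were called in both measures, and in the RPLP0 line 209 were, 0 of them in opposite directions.

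**Figure D2:**
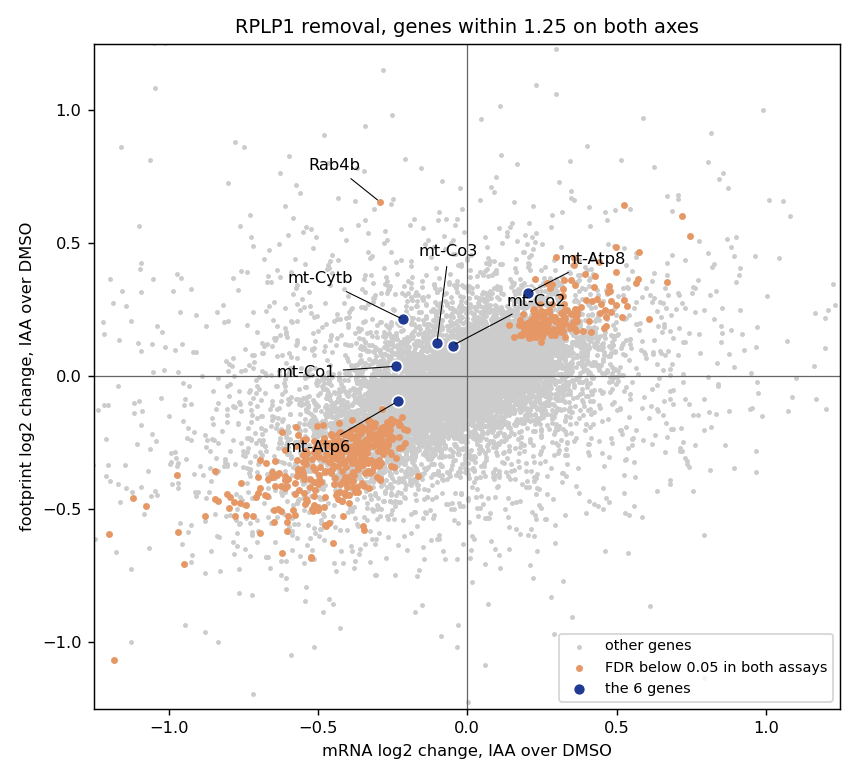
Footprint log2 change (y axis) against mRNA log2 change (x axis), IAA over DMSO, for each gene of the RPLP1 table; orange points have an FDR below 0.05 in both measures, dark blue points are the 6 genes, and 124 of 12274 genes lie outside the axes. The orange points lie in the lower left and upper right except mt-Cytb, drawn over in dark blue, and Rab4b, both in the upper left.

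In the RPLP0 line 0 of the 6 genes were called in footprints and 0 in mRNA, against 2.46% and 9.95% of all genes. At an unadjusted p below 0.05, 4 of the 6 were reached in footprints (mt-Cytb, mt-Co2, mt-Atp6 and mt-Atp8, all higher; 20.7% of all genes) and 3 in mRNA (mt-Cytb, mt-Atp6 and mt-Atp8, all higher; 23.2%). The 6 genes had a median log2 change of 0.42 in footprints and 0.12 in mRNA, beside 0.00 in both over all genes. All 12 changes in this line were above 0, so none of the 6 genes combined higher footprints with lower mRNA, against 1 of the 7 complex I genes and 16.1% of all genes.

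The change in translation efficiency was taken as the log2 change of footprints less that of mRNA, with a standard error (SE) from the errors that the fold changes and FDRs imply. For mt-Cytb it was 0.42 (SE 0.156) after RACK1 removal, 0.43 (SE 0.0816) after RPLP1 removal and 0.29 (SE 0.176) after RPLP0 removal. Only the value in the RPLP1 line passed an approximate normal test adjusted over all genes of its table (Benjamini-Hochberg, below 0.05), with a 95% interval of 0.27 to 0.59. It was 1 of 4 genes that passed there, 0.0326% of the table. The others, named after their values were seen, were Utf1, a chromatin factor of pluripotent cells, the cytokine gene Mif and Chchd10, whose protein lies in mitochondria.

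None of the efficiency changes of the complex IV genes passed in any line. On the log2 scale those of mt-Co1 were 0.19 (SE 0.154) after RACK1 removal, 0.28 (SE 0.0854) after RPLP1 removal and 0.14 (SE 0.138) after RPLP0 removal. For mt-Co2 they were 0.51 (SE 0.149), 0.17 (SE 0.0757) and 0.36 (SE 0.166) in the RACK1, RPLP1 and RPLP0 lines. For mt-Co3 the RACK1 line gave 0.62 (SE 0.161), the largest efficiency change of the 6 genes, the RPLP1 line 0.23 (SE 0.0672) and the RPLP0 line 0.03 (SE 0.139). The 95% interval of mt-Co3 was 0.30 to 0.93 in the RACK1 line and -0.25 to 0.30 in the RPLP0 line.

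For the complex V genes, the efficiency change of mt-Atp6 was 0.48 (SE 0.148) after RACK1 removal, 0.14 (SE 0.103) after RPLP1 removal and 0.30 (SE 0.157) after RPLP0 removal, on the log2 scale. That of mt-Atp8 was 0.57 (SE 0.196) in the RACK1 line, 0.11 (SE 0.126) in the RPLP1 line and 0.28 (SE 0.185) in the RPLP0 line. Its rise in both measures after RPLP1 removal thus left an efficiency interval that spans 0, from -0.14 to 0.36. None of the complex V values passed.

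By count, the approximate test of efficiency called 0 of the 6 genes after RACK1 removal, where it called 0.116% of all genes, and 0 of the 6 after RPLP0 removal, where it called 0.0081%. At an unadjusted p below 0.05 it reached 5 of the 6 in the RACK1 line, all higher and all but mt-Co1 (7.92% of all genes), and 1 in the RPLP0 line, mt-Co2, higher (6.61%). These calls rest on taking the errors of footprints and mRNA as independent: with an error correlation of 0.5 the test called 5 of the 6 in the RACK1 line, 3 in the RPLP1 line and 0 in the RPLP0 line, beside 3.25%, 3.85% and 1.98% of all genes. The labels describe the mRNA samples as paired with the footprint sample of their line, and the size of any shared error is unknown. The median efficiency change of the 6 genes was 0.50 in the RACK1 line, 0.20 in the RPLP1 line and 0.28 in the RPLP0 line, beside -0.01, 0.00 and 0.00 over all genes. All 18 values of the 6 genes were above 0, against 48.2% of all genes in the RACK1 table, 50.4% in the RPLP1 table and 49.8% in the RPLP0 table. Over all genes the median changes of both measures lay near 0 in each line, and no absolute scale is given. A change is thus known only relative to the other genes, and the 6 genes are not replicates of each other. Of the 7 complex I genes, 7 were above 0 in the RACK1 line, 5 in the RPLP1 line and 5 in the RPLP0 line. In the RPLP0 line the efficiency change was also above 0 for 9 of 9 nuclear-encoded complex III subunits, 10 of 11 of complex IV and 15 of 18 of complex V. Within its own line, 17 of the 18 values lay between the 5th and the 95th percentile of all genes, the exception being mt-Co3 in the RACK1 line.

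**Figure D3:**
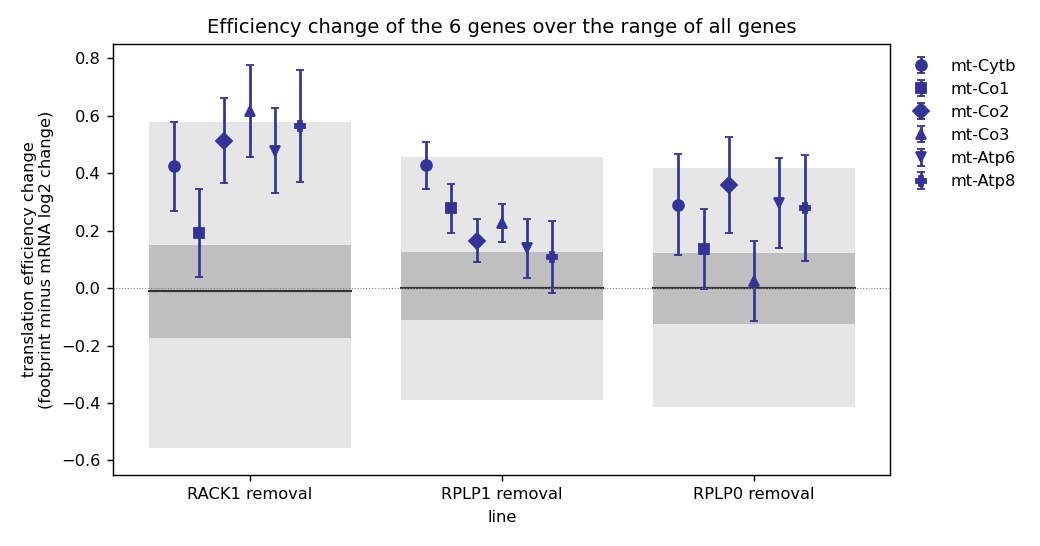
Translation efficiency change (footprint minus mRNA log2 change, y axis) of the 6 genes (symbols) in each line (x axis); bars are SE, the light band runs from the 5th to the 95th percentile of all genes, the darker band from the 25th to the 75th, and the line is the median. All 18 symbols lie above 0, and mt-Co3 in the RACK1 line, at 0.62, lies above the light band, whose upper edge is 0.58.

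The 6 genes shared an efficiency change above 0 in all 3 lines, as did 3 of the 7 complex I genes and 1305 of the 11855 genes found once in every table (11.0%). Ranked by the smallest of the 3 efficiency changes, mt-Cytb stood at 58 of 11855 with 0.29, mt-Co2 at 177 with 0.17, mt-Atp6 at 229 with 0.14, mt-Co1 at 237 with 0.14, mt-Atp8 at 323 with 0.11 and mt-Co3 at 898 with 0.03. Each gap between neighbours in this order was smaller than the combined SE of the pair. Of the complex I genes, mt-Nd2 stood at 77 with 0.25 and mt-Nd1 at 93 with 0.24, ahead of all of the 6 but mt-Cytb. The complex I gene mt-Nd4 stood at 925 with 0.02, and the smallest change of the remaining complex I genes was below 0. The footprint change was above 0 in all 3 lines for 5 of the 6 genes, the exception being mt-Atp6, and for 4 of the 7 complex I genes and 12.3% of all genes. The mRNA change was below 0 for all 6 genes in the RACK1 line and for 5 in the RPLP1 line, and above 0 for all 6 in the RPLP0 line.

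The lines were compared directly, gene by gene, with the same approximate test, each line having its own DMSO samples. In mRNA, 4 of the 6 genes differed between the RACK1 and RPLP0 lines, where 3.27% of genes did. The difference, RACK1 minus RPLP0 on the log2 scale, was -0.41 (SE 0.127) for mt-Co2 and -0.51 (SE 0.135) for mt-Co3. It was -0.49 (SE 0.132) for mt-Atp6 and -0.64 (SE 0.166) for mt-Atp8. The mRNA changes of these genes were thus lower in the RACK1 line than in the RPLP0 line. None of these mRNA changes was called in either line alone. Between the RPLP1 and RPLP0 lines 3 of the 6 differed in mRNA, where 12.2% of genes did: mt-Cytb by -0.34 (SE 0.0830), mt-Co1 by -0.32 (SE 0.0918) and mt-Atp6 by -0.37 (SE 0.0888), RPLP1 minus RPLP0. Between the RACK1 and RPLP1 lines 1 of the 6 differed in mRNA, mt-Atp8, by -0.69 (SE 0.162), RACK1 minus RPLP1, where 7.91% of genes did.

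In footprints, 1 of the 6 differed between the RPLP1 and RPLP0 lines, mt-Atp6, by -0.53 (SE 0.165), where 4.69% of genes did. None of the 6 differed in footprints for RACK1 minus RPLP0, against 0.632% of all genes, or for RACK1 minus RPLP1, against 0.107%. At an unadjusted p below 0.05, 0 of the 6 were reached in either, against 16.2% and 10.6% of all genes.

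In translation efficiency, 0 of the 6 genes differed between any pair of lines; the test called 0.0665% of all genes for RACK1 minus RPLP0, 0.33% for RACK1 minus RPLP1 and 0.00836% for RPLP1 minus RPLP0. Unadjusted p-values below 0.05 were reached by 1 of the 6 for RACK1 minus RPLP0 (mt-Co3; 8.99% of all genes), by 2 for RACK1 minus RPLP1 (mt-Co2 and mt-Co3; 9.99%) and by 0 for RPLP1 minus RPLP0 (5.1%). For mt-Cytb the efficiency changes of the RACK1 and RPLP1 lines differed by -0.00 (SE 0.176), with a 95% interval of -0.35 to 0.34. The widest gap, for mt-Co3 between the RACK1 and RPLP0 lines, was 0.59 (SE 0.213; 95% interval 0.17 to 1.01).

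The genes mt-Atp8 and mt-Atp6, which share an mRNA, gave different values after RPLP1 removal. Both were called in mRNA there, in opposite directions, so their values cannot both give the level of the shared mRNA. What set the values apart was not tested. The difference mt-Atp8 minus mt-Atp6 was 0.41 in footprints (SE 0.135; 95% interval 0.14 to 0.67) and 0.44 in mRNA (SE 0.0893; 95% interval 0.26 to 0.61), on the log2 scale. In the RACK1 line it was -0.05 (SE 0.155) in footprints and -0.14 (SE 0.190) in mRNA, and in the RPLP0 line -0.01 (SE 0.224) and 0.01 (SE 0.0939), all within 1 SE of 0. These errors take both genes as independent, although reads in the overlap of the reading frames can be counted for either. RefSeq also lists a nuclear pseudogene, Gm10925 on chromosome 1, under names of mt-Atp6, and it is in none of the 3 tables. How the authors assigned reads that match both is not stated in these sources, and the part of Gm10925 in the mt-Atp6 values was not tested. Only pseudogenes with a mitochondrial gene name among their synonyms were looked for, so nuclear copies of any of the 6 genes listed otherwise would be missed.

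Along the mitochondrial genome, in RefSeq's order, mt-Co1, mt-Co2, mt-Atp8, mt-Atp6 and mt-Co3 stand next to each other, and mt-Cytb stands last, after 5 complex I genes. From mt-Co2 to mt-Co3, the log2 mRNA changes in the RACK1 line lay between -0.49 and -0.32, while mt-Nd3, the next gene, a small membrane subunit of complex I, fell by 1.05 (FDR 1.07e-07), the lowest mRNA change of the 13 genes, in the authors' deposited table. After RPLP1 removal mt-Nd3 rose by 0.25 in mRNA (FDR 0.0137), per the authors' deposited table. So mt-Atp8 and mt-Nd3 were the 2 mitochondrially encoded genes with higher mRNA after RPLP1 removal, and also those with the lowest mRNA changes after RACK1 removal. The pair was singled out after its values were seen.

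**Figure D4:**
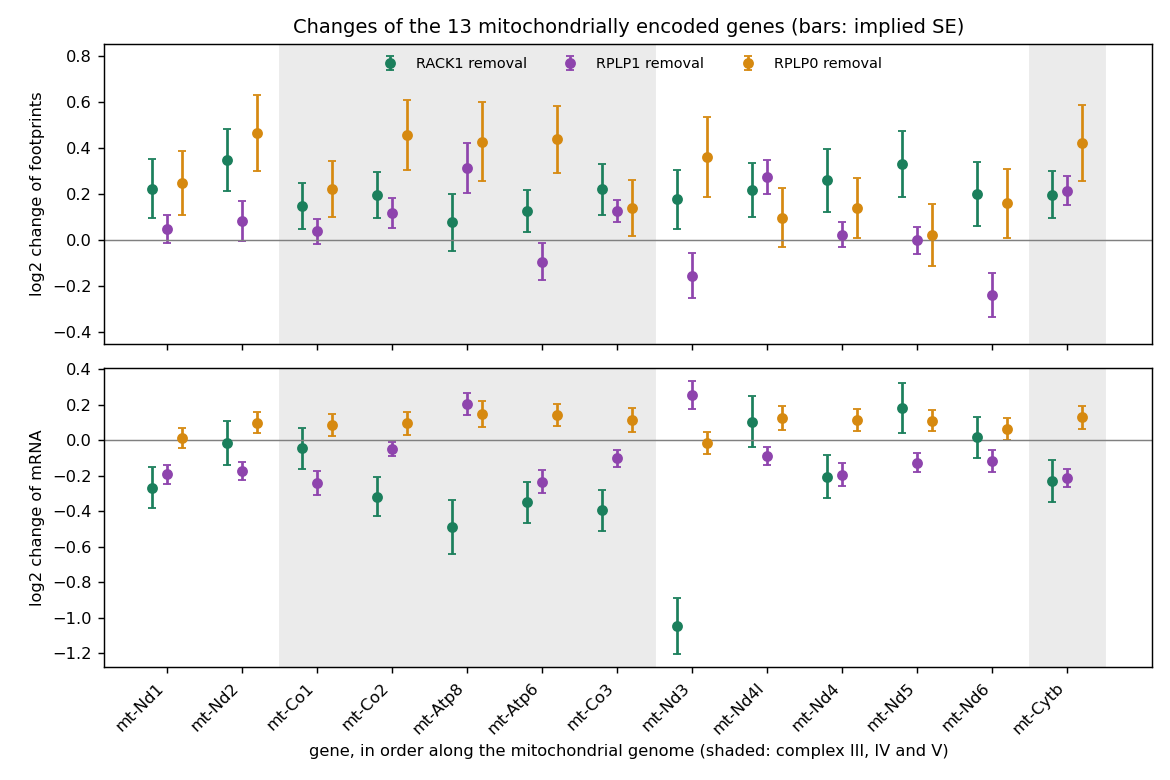
Log2 change after IAA over DMSO of footprints (upper panel) and mRNA (lower panel) for the 13 protein-coding genes in their order along the mitochondrial genome (x axis), with the 6 genes of complexes III, IV and V shaded; bars are implied SE. In mRNA, mt-Atp8 and mt-Nd3 are the only genes with RPLP1 points above 0, at 0.20 and 0.25, and they have the lowest RACK1 points, at -0.49 and -1.05.

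Set beside the 6 genes, the 7 complex I genes had median log2 changes in the RACK1 line of 0.22 for footprints and -0.02 for mRNA, in the RPLP1 line of 0.02 and -0.13, and in the RPLP0 line of 0.16 and 0.10. Besides mt-Nd3, the calls among them were all in the RPLP1 line: mRNAs of mt-Nd1 (-0.19, FDR 0.00514), mt-Nd2 (-0.17, FDR 0.0130) and mt-Nd4 (-0.19, FDR 0.0234) fell, and footprints of mt-Nd4l rose (0.27, FDR 0.0117), in log2 units, per the authors' deposited table. Their median efficiency changes were 0.36, 0.22 and 0.10 in the RACK1, RPLP1 and RPLP0 lines, and mt-Nd3 in the RACK1 line, at 1.22 (SE 0.203), was the 1 that passed. Whether both sets of genes differ was not tested, since the genes of each set are not replicates.

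The nuclear-encoded partners of the same complexes had median efficiency changes nearer to 0 in the RACK1 and RPLP1 lines. For 9 complex III subunits the medians were 0.03, -0.03 and 0.11 in the RACK1, RPLP1 and RPLP0 lines, for 11 complex IV subunits 0.02, -0.01 and 0.12, and for 18 complex V subunits 0.12, 0.01 and 0.10, on the log2 scale. After RACK1 removal the mRNAs of 3 of these 38 partners fell and none rose, against 0.31% of all genes called lower and 0.17% higher. Those that fell were Cox6c by 0.46 (FDR 0.0123), Atp5j2 by 0.47 (FDR 0.0200) and Usmg5 by 0.57 (FDR 0.0234), on the log2 scale in the authors' deposited table. Cox6c encodes a small subunit of cytochrome c oxidase, and Atp5j2 and Usmg5 encode small subunits of the membrane part of ATP synthase. None of the 38 had a called footprint change in that line, against 0.031% of all genes. In efficiency, Usmg5 went against the medians: its change of 0.68 (SE 0.166) passed the approximate test, as 0.116% of all genes did. That was above the value of each of the 6 mitochondrially encoded genes in the RACK1 line, none of which passed there.

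After RPLP1 removal the partners went both ways. In mRNA 2 of the 38 rose and 6 fell, against 5.64% of all genes called higher and 8.59% lower. In footprints 1 rose and 0 fell, against 3.54% and 4.85%. In complex III, the mRNAs of Uqcrc1, a core protein, and Cyc1, cytochrome c1, fell by 0.26 (FDR 0.00383) and 0.19 (FDR 0.0373), and that of Uqcrb rose by 0.48 (FDR 0.00461), on the log2 scale, per the authors' deposited table. In complex IV, Cox6a1 and Cox8a fell by 0.28 (FDR 0.00296) and 0.19 (FDR 0.0265) in mRNA, on the log2 scale of the authors' deposited table. In complex V the mRNAs of Atp5g1, a subunit of the rotating ring, and Atp5d fell by 0.22 (FDR 0.0172) and 0.21 (FDR 0.0220), while Usmg5 mRNA rose by 0.30 (FDR 0.0153), on the log2 scale of the authors' deposited table. The 1 called footprint change among the partners in this line was that of Atp5j, named after its value was seen, which rose by 0.18 (FDR 0.0315) in the authors' deposited table. After RPLP0 removal 0 of the 38 were called in either measure, against 9.95% of all genes in mRNA and 2.46% in footprints.

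Assembly factors of complexes III, IV and V were listed for 29 genes. For this list and those below, the shares of all genes called give the background. In mRNA they were 0.48%, 14.2% and 9.95% in the RACK1, RPLP1 and RPLP0 lines. In footprints they were 0.031%, 8.39% and 2.46%. After RPLP1 removal Cox18, which helps to insert the mt-Co2 product into the membrane, fell by 0.47 in mRNA (FDR 0.00325), and Oxa1l, the general insertase for mitochondrially made proteins, fell by 0.30 (FDR 0.00410), on the log2 scale of the authors' deposited table. After RPLP0 removal 3 assembly factor mRNAs rose, per the authors' deposited table: Tmem70, for ATP synthase, by 0.33 (FDR 0.0227), Sco2, a copper chaperone for the mt-Co2 product, by 1.02 (FDR 0.0403) and Surf1, for complex IV, by 0.36 (FDR 0.0463) on the log2 scale. After RACK1 removal 0 of the 29 were called in either measure.

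Among 28 genes of mitochondrial transcription and RNA processing, 0 were called after RACK1 removal. After RPLP1 removal the mitochondrial RNA polymerase gene Polrmt fell by 0.31 in footprints (FDR 0.0234) and by 0.43 in mRNA (FDR 0.00341), in log2 units of the authors' deposited table. The mRNA of Tfam, a factor that packages and transcribes mitochondrial DNA, rose by 0.25 (FDR 0.0114), and that of Elac2, which cuts the 3' end of tRNA precursors, fell by 0.24 (FDR 0.0295), per the authors' deposited table. After RPLP0 removal Tfb2m, a transcription initiation factor, fell by 0.34 (FDR 0.0104) and Elac2 rose by 0.20 (FDR 0.0218) in mRNA, on the log2 scale of the authors' deposited table.

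The machinery that translates the 6 genes was represented by 11 mitochondrial translation factors and 77 mitochondrial ribosomal proteins. After RACK1 removal 1 of these 88 was called, against 0.48% of all genes in mRNA and 0.031% in footprints. It was Mrps18c, whose mRNA fell by 0.80 on the log2 scale (FDR 0.0234) in the authors' deposited table. After RPLP1 removal the footprints of the factors Gfm2, for ribosome recycling, and Tufm, the elongation factor that brings tRNAs, fell by 0.27 (FDR 0.0236) and 0.17 (FDR 0.0304), on the log2 scale of the authors' deposited table. Of the ribosomal proteins, 2 rose and 6 fell in mRNA in that line and 1 fell in footprints; Mrps18c rose by 0.48 in mRNA (FDR 0.00346), Mrpl50 rose by 0.30 in mRNA (FDR 0.00698), and Mrpl37 fell by 0.24 in footprints (FDR 0.0122) and by 0.33 in mRNA (FDR 0.0160), per the authors' deposited table. After RPLP0 removal Tufm mRNA fell by 0.25 (FDR 0.00293), and 3 ribosomal protein mRNAs rose and 2 fell, per the authors' deposited table. The mRNA of Mrpl49 rose by 0.27 (FDR 0.00641) and that of Mrps18a by 0.32 (FDR 0.0171), and Mrpl14 fell by 0.41 in footprints (FDR 0.0313) and by 0.50 in mRNA (FDR 0.0223), on the log2 scale of the authors' deposited table. The median efficiency change of the ribosomal proteins was 0.04, -0.04 and 0.00 in the RACK1, RPLP1 and RPLP0 lines.

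Likeness between genes was measured as the Euclidean distance over the 6 log2 changes (3 lines, 2 measures), across the 11855 genes found once in every table, whose median distance from the median profile of the 6 genes was 0.753. Among the 6, mt-Co2 was nearest to that profile at 0.120, then mt-Cytb at 0.155, mt-Atp6 at 0.234, mt-Co3 at 0.299, mt-Co1 at 0.375 and mt-Atp8 at 0.449. Outside the mitochondrial genome the 5 nearest genes were Guca1a (0.147), Traf3ip2 (0.212), Pigc (0.219), Rpl41 (0.228) and Eef1akmt2 (0.254). The gene nearest to mt-Cytb was mt-Co2 (0.217), and for the other 5 it was a nuclear gene: Thap7 for mt-Co1 (0.102), Rpl41 for mt-Co2 (0.161), Spats1 for mt-Co3 (0.165), Ormdl2 for mt-Atp6 (0.195) and Ppp1r11 for mt-Atp8 (0.208). The profile is the median of the same 6 genes, so their own distances to it are short in part by construction. The 6 changes of a gene come from shared libraries, so these distances are a description only.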

How the data were processed

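Footprints and polyadenylated mRNA were measured in 3 degron lines (21 samples: per line 3 IAA and 3 DMSO mRNA samples and 1 footprint sample of both treatments). The authors deposited 1 table per line with, per the file headers, a log2 fold change after removal and an FDR (adjusted p-value) for mRNA and for footprints, and a class code from 0 to 3. Positive log2 changes were read as higher after IAA, since the headers name no numerator. Not given in the sources used here are the aligner, genome build, counting, statistical test, low-count filter and footprint length range. A short length range or the use of polyadenylated RNA can change how fully mitochondrial ribosomes and mRNAs are sampled.

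Calls used the authors' FDR below 0.05. The standard error was the fold change over the normal quantile of the p-value obtained by undoing the Benjamini-Hochberg step, interpolated within runs of equal FDR. Efficiency changes and differences between lines were tested against combined errors, taken as independent, with Benjamini-Hochberg adjustment over all genes; 95% intervals are 1.96 SE. This is approximate with 3 samples a group. It also takes the authors' FDRs as Benjamini-Hochberg values over exactly the genes listed for a line, and the fold changes as not shrunken towards 0. Neither is stated in the sources used here. All 6 genes were described; from the other lists, at most 3 called genes per list and line were named, by smallest FDR (Atp5j was added as the 1 called footprint change among nuclear-encoded subunits in the RPLP1 line), and the 5 nearest genes by distance. Genes, lists and tests were chosen with earlier results of these data known. Gene order and the overlap of neighbouring genes came from RefSeq start and end positions (GRCm38.p6), matched by a name table for all 6 genes. Symbols found more than once were left out of comparisons between lines. Python 3.11.15, numpy 2.4.6, pandas 2.3.3, scipy 1.17.1 and matplotlib 3.10.9 were used.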

Additional observations from a re-analysis of the deposited data

Results flagged for a closer look

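Differences between lines passed the approximate test for 9 gene and measure combinations, given here on the log2 scale as the change in one line minus that in another. For RACK1 minus RPLP0 they were in mRNA: -0.41 (SE 0.127) for mt-Co2, -0.51 (SE 0.135) for mt-Co3, -0.49 (SE 0.132) for mt-Atp6 and -0.64 (SE 0.166) for mt-Atp8. In each, the change in neither line alone passed the authors' FDR of 0.05. For RACK1 minus RPLP1 it was mt-Atp8 mRNA, at -0.69 (SE 0.162), with changes of -0.49 in the RACK1 line and 0.20 in the RPLP1 line. For RPLP1 minus RPLP0 they were mRNA of mt-Cytb at -0.34 (SE 0.0830), of mt-Co1 at -0.32 (SE 0.0918) and of mt-Atp6 at -0.37 (SE 0.0888), and footprints of mt-Atp6 at -0.53 (SE 0.165). The mt-Atp6 footprint change was -0.09 in the RPLP1 line and 0.44 in the RPLP0 line, and neither passed alone in the authors' deposited table. In translation efficiency 0 of the 6 genes differed between lines.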

How the results depend on the processing

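With the authors' FDR below 0.1, 1 of the 6 genes was called in mRNA after RACK1 removal (mt-Co3; 0.876% of all genes) and 2 in footprints after RPLP0 removal (6.96%), against 0 at 0.05. With the authors' class codes, which take in higher FDRs, 4 were called in mRNA after RACK1 removal (2.22% of all genes), and 2 in footprints (6.96%) and 2 in mRNA (22.2%) after RPLP0 removal, against 0 each. An efficiency threshold of 0.1 gave 1 after RACK1 removal (mt-Co3; 0.201% of all genes), against 0. An error correlation of 0.5 between footprints and mRNA, in place of 0, gave 5 after RACK1 removal against 0 (all but mt-Co1) and 3 after RPLP1 removal against 1 (mt-Cytb, mt-Co1 and mt-Co3). It gave 1 of the 6 whose efficiency differed for RACK1 minus RPLP0 (4.27% of all genes) and 1 for RACK1 minus RPLP1 (6.64%), against 0 each. Under it the efficiency calls over all genes within a line were 420, 473 and 245 in the RACK1, RPLP1 and RPLP0 lines, against 15, 4 and 1, since it makes the error of a difference smaller. The other 59 checks of counts and medians kept the reported value within 1.5 times or within 1 SE, including centring on the median of all genes and leaving out mt-Atp8, and no direction reversed. The checks of mRNA and footprint differences between lines, and of mt-Atp8 minus mt-Atp6, were chosen after seeing the data. The correlation between the errors of both measures is unknown, so efficiency calls depend on an assumption that the tables do not test. No paired analysis was possible because the tables hold no value per sample, and leaving out replicates and a replicate block were therefore not run. Depth is unknown.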
